A study of Mus musculus with 2 samples.

Results

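The fibroblast growth factor (FGF) pathway was examined in 2 rhabdoid tumors (RT) of Dppa3-cre::Smarcb1 mice, which were profiled by bulk RNA-seq of poly(A) RNA. Genes were taken by symbol from the table of 55416 genes. They comprised the numbered Fgf genes, the Fgfr genes, and Spry1, Spry2, Spry3, Spry4, Spred1, Spred2, Dusp6, Etv1, Etv4, Etv5 and Klb, kept where they were protein-coding. Of 38 such genes, 37 were found, and Spry3 was not analysed here. Both mice shared the same genotype, with Cre expressed from the locus of Dppa3, a gene of primordial germ cells, and 1 floxed Smarcb1 allele on a C57BL/6 background. Smarcb1 encodes a SWI/SNF chromatin remodeling subunit, and in this heterozygous model the remaining allele has to be lost by chance. One tumor was labelled intracranial (trigeminal nerve) and 1 extracranial (facial, maxillar), and both carried the MYC classification. Age at sampling is not given in the sources used here, and no normal tissue was sequenced alongside.

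With 1 library per location, no difference below has a replicate check, and each value compares 2 libraries and not 2 locations. Intervals are exact 95% counting intervals computed from single libraries, so they cover counting error only and no variation between animals. The reads carry no molecular identifiers and need not stem from separate molecules, so the intervals may be too narrow even for counting error. The libraries held 34545846 (intracranial) and 26915696 (extracranial) counts, and 3 counts, taken as the floor, equalled 0.0863 and 0.112 CPM (counts scaled to a library of 1000000). Smarcb1 itself lay at 10.5 CPM (9.45 to 11.6) in the former and at 19.8 CPM (18.2 to 21.6) in the latter. These are RNA levels of bulk tissue, and which cells or allele they came from was not tested. By staining, the paper reports that Smarcb1 protein was lost in an intracranial and an extracranial tumor of this model. The libraries differed in markers of other cell types. In the keratinocyte list 10 of 10 genes were lower in the extracranial library, with a summed level of 21885 against 1.64 CPM. Krt5, Krt6a, Trp63 and Dsg3 were at 0 counts there. The largest parts of this sum were Krt13 (366709 counts in the intracranial and 5 in the extracranial library) and Krt4 (199691 and 9). Skeletal muscle genes were also lower in the extracranial library, for 8 of 8 above the floor. The tumors are named by their labels, and whether these markers match the labelled locations was not tested. Of 9 Schwann cell genes, which mark nerve tissue, 7 were lower and 2 higher in the extracranial library, with summed levels of 242.8 CPM in the intracranial and 253.1 CPM in the extracranial one. Sox10 had 43 and 0 counts, whereas Egr2 (630 and 2396) and Mag (86 and 282) were higher in the extracranial library. In bulk tissue, fewer cells of a type and less RNA per cell cannot be told apart.

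FGF ligands are mostly secreted proteins that bind heparan sulfate and dimerize receptor tyrosine kinases at the cell surface, which then signal through the adaptor Frs2 to the RAS-ERK cascade. Among the transcripts that ERK activity is known to induce are its own brakes, the Sprouty and Spred proteins and the ERK phosphatase Dusp6, as well as the ETS factors Etv1, Etv4 and Etv5. In head development, mesenchymal Fgf10 and Fgf7 act on the epithelial form of Fgfr2, whereas Fgfr1 is the main receptor of mesenchymal cells.

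Before the values, the sequence upstream of the annotated start is shown for 4 of the genes that differ between the tumors: Fgf10 and Fgf7, a pair of ligands of the same subfamily with opposite differences, Fgf18, a ligand of bone and cartilage development, and Spry1, the Sprouty gene with the widest difference. The sequences are from RefSeq on GRCm38.p6, cover the 250 bases before the start on the strand of the gene and lie at chr13:118714449-118714698, plus strand for Fgf10, chr2:126034408-126034657, plus strand for Fgf7, chr11:33147401-33147650, minus strand for Fgf18 and chr3:37639697-37639946, plus strand for Spry1. None of these 4 windows held an annotated exon base of its gene. Capitals mark GGGCGG or its reverse complement CCGCCC, the GC box.
Fgf10: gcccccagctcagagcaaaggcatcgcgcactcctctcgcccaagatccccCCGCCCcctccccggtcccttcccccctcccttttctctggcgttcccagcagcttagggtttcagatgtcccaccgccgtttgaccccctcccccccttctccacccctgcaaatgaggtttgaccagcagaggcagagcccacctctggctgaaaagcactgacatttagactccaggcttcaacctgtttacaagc
Fgf7: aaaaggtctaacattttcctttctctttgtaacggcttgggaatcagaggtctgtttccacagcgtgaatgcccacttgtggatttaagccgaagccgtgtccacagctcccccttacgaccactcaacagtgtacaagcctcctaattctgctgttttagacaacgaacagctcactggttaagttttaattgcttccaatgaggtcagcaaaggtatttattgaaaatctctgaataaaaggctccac
Fgf18: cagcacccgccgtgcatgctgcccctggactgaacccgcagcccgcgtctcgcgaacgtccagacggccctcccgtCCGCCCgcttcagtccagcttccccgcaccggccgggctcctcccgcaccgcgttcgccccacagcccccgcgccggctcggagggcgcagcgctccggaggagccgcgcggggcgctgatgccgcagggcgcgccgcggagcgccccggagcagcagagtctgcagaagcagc
Spry1: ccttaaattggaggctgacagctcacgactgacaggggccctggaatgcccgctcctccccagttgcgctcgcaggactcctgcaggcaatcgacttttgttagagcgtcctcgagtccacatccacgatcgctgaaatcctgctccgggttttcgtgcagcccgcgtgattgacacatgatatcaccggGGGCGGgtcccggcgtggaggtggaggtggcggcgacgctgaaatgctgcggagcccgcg
Fgf10, Fgf18 and Spry1 held 1 match each, and Fgf7 held 0. Windows were given for 28 of the 37 genes (37 windows, since some genes have several starts). GGGCGG was present on either strand in 22 of 37 of these windows (59.5%), against 32.7% of 32851 windows of all genes, and the median GC content was 62.4% against 52.4%. CACGTG, the E-box that MYC binds, was present in 5.41% against 6.02%, TGANTCA (AP-1) in 5.41% against 6.75%, CCGGAA (ETS) in 10.8% against 12%, and TATAAA in 5.41% against 12.4%, all on both strands. None of these 4 was present in the windows of Fgf10, Fgf7, Fgf18 and Spry1. Matches were counted for each motif separately and could overlap, and windows of 1 gene are not independent.

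Of the 37 genes, 28 had more than 3 counts in at least 1 tumor. Fgf4, Fgf8, Fgf20 and Fgf23 had 0 counts in both, for which the upper 95% limits are 0.106 and 0.138 CPM, and Fgf3, Fgf5, Fgf6, Fgf9 and Fgf21 had 3 or fewer. A ratio was tested for 27 genes with 10 or more counts over both tumors, and a call required that the interval of the ratio lay wholly beyond 4-fold. Of the 27, 6 were called (6 lower and 0 higher in the extracranial tumor). Among all 21977 genes tested 7.19% were called, 5.41% as lower and 1.78% as higher there. Among the 15734 protein-coding genes tested, 1407 were called, 1075 (6.83%) as lower and 332 as higher. Under the looser limit of 2-fold, 11 of the 27 were called (7 lower, 4 higher), beside 15.6% of all tested genes (9.77% and 5.86%). Of the protein-coding genes tested, 2976 were called at 2-fold, 1891 as lower and 1085 as higher. Shares given further below are over all tested genes of any type. Because a gene enters the test through the tumor in which it is high, these counts describe the genes tested and not the whole pathway. The 6 genes called at 4-fold were Fgf10, Fgf15, Fgf11, Fgf14, Fgfr2 and Fgfr3.

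**Figure D1:**
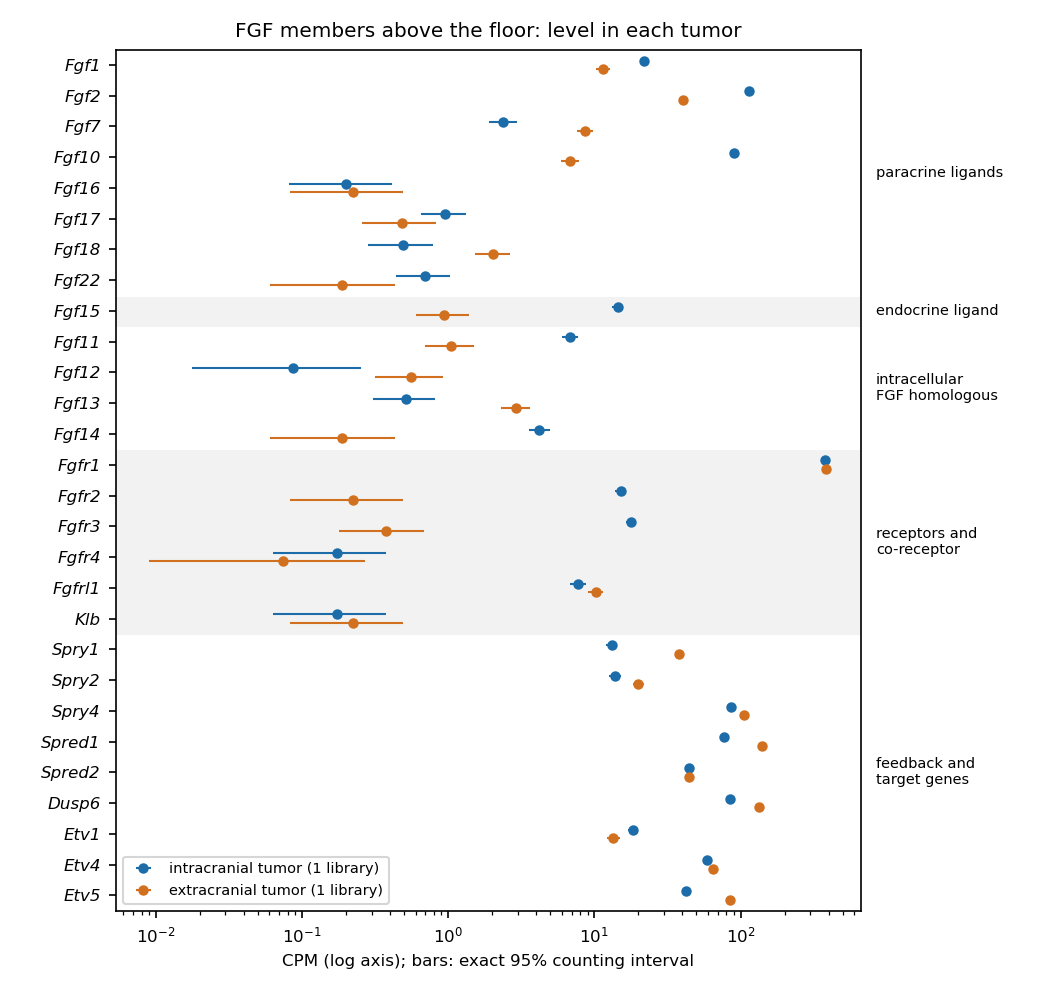
Level of each of the 28 FGF pathway genes above the floor in CPM (log axis) in the intracranial (blue) and extracranial (orange) tumor, 1 library each, with bars for the exact 95% counting interval. By CPM, which is not adjusted for gene length, Fgfr1 was the highest gene in both tumors (377 and 384 CPM). Per kilobase, Dusp6 (42.7) stood above Fgfr1 (38.9) in the extracranial tumor. The feedback genes lay close together between the tumors, while ligands and the other receptors spread widely.

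Among receptors, the tumors had close levels of Fgfr1 and differed in Fgfr2 and Fgfr3. Fgfr1 (ENSMUSG00000031565) had 13111 counts in the intracranial and 10268 in the extracranial tumor, which is 377 and 384 CPM. The log2 ratio, extracranial over intracranial here and below, was 0.02 (-0.01 to 0.06). Per kilobase of exon, the scale on which genes can be compared, Fgfr1 reached 38.2 and 38.9 CPM per kilobase, at percentile 93.5 of the 16543 protein-coding genes above the floor in both tumors. Fgfr1 was the highest receptor in both.

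Fgfr2 (ENSMUSG00000030849), whose epithelial and mesenchymal splice forms are not separated by counts per gene, had 529 and 6 counts. That is 15.2 and 0.224 CPM, or 67.9-fold more in the intracranial tumor (31.0 to 186). Fgfr3 (ENSMUSG00000054252), the receptor known for restraining cartilage growth, had 620 and 10 counts, 17.8 and 0.374 CPM, which is 47.7-fold more in the intracranial tumor (25.8 to 100.1). Both were thus present at an intermediate level in the intracranial tumor (percentiles 34.2 and 43.7) and near the bottom of the scale in the extracranial one (7.16 and 11). The keratinocyte genes moved in the same direction, 10 of 10, and their part in these ratios was not tested. Fgfr2 shares 314 exon bases with Ctbp2 on the same strand in the annotation used, and Ctbp2 had 1169 and 885 counts.

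The other receptor-side genes were low or similar. Fgfr4 had 6 and 2 counts, and Klb, the co-receptor of endocrine FGFs, had 6 in each tumor, so neither difference was detectable at this depth (Klb log2 ratio 0.38, -1.53 to 2.28). Fgfrl1, a receptor without a kinase domain, had 270 and 274 counts, 7.77 and 10.2 CPM, a log2 ratio of 0.40 (0.15 to 0.65). Of all counts on the 4 kinase receptors, Fgfr1 took 91.9% (91.4 to 92.3) in the intracranial and 99.8% (99.7 to 99.9) in the extracranial tumor. On the scale of CPM per kilobase these shares were 90.5% and 99.8%. Fgfr3 came next in the intracranial tumor, with 5.90% of the level per kilobase, followed by Fgfr2 with 3.49%.

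**Figure D2:**
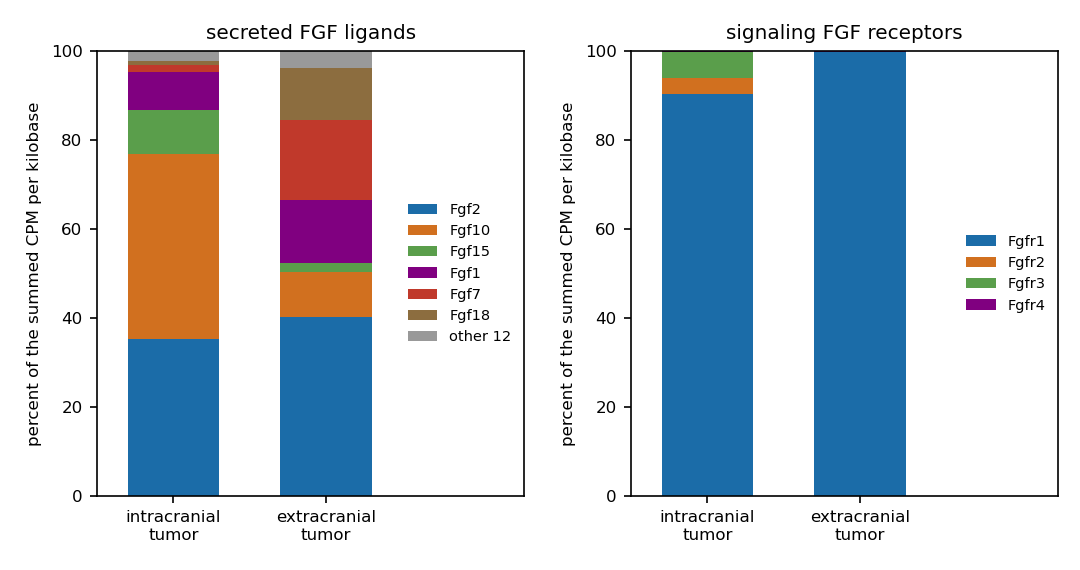
Share of each gene in the summed CPM per kilobase of the 18 secreted FGF ligands (left) and the 4 kinase receptors (right), as stacked percent per tumor, 1 library each. Fgfr1 filled 90.5% of the receptor bar in the intracranial and 99.8% in the extracranial tumor, while Fgf10 held 41.4% and 10.1% of the ligand bar.

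The paracrine ligands, which act on neighboring cells, summed to 230.5 CPM in the intracranial and 70.2 CPM in the extracranial tumor, and 8 of 15 were above the floor. Most of this level came from Fgf2 and Fgf10. Fgf10 (ENSMUSG00000021732), the mesenchymal ligand of lung, limb and gland budding, had 3132 counts in the intracranial and 183 in the extracranial tumor, 90.1 and 6.84 CPM. It was 13.2-fold higher in the intracranial tumor (11.4 to 15.4), and its percentile per kilobase was 87.4 against 37.9. In its subfamily, Fgf7 (ENSMUSG00000027208, keratinocyte growth factor) went the other way. It had 83 and 231 counts, 2.39 and 8.63 CPM, and was 3.61-fold higher in the extracranial tumor (2.80 to 4.70), past the 2-fold but not the 4-fold limit. Fgf22, of the same subfamily, had 24 and 5 counts, and its log2 ratio of -1.89 (-3.63 to -0.47) passed neither limit. It shares 82 exon bases with Rnf126 on the opposite strand (1325 and 914 counts), and whether the counting used the strand is not given in the sources used here. The fourth gene of this subfamily, Fgf3, had 1 count in each tumor.

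Fgf2 and Fgf1, which leave cells without a signal peptide and activate a broad range of FGF receptors, were both lower in the extracranial tumor. Fgf2 (ENSMUSG00000037225) had 3942 and 1075 counts, 113 and 40.2 CPM, and was 2.82-fold higher in the intracranial tumor (2.64 to 3.02). It shares 640 exon bases with Nudt6 on the opposite strand, which had 89 and 52 counts. Fgf1 (ENSMUSG00000036585) had 766 and 306 counts, 22.0 and 11.4 CPM, with a log2 ratio of -0.95 (-1.14 to -0.75), so its interval reached across the 2-fold limit. In the extracranial tumor Fgf2 was the highest ligand per kilobase (5.92 CPM per kilobase), and in the intracranial tumor it came second (16.7) after Fgf10 (19.6).

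In the subfamily of Fgf8, Fgf17 and Fgf18, which pattern the brain and the skeleton, only Fgf18 passed a limit. Fgf18 (ENSMUSG00000057967) had 17 counts in the intracranial and 54 in the extracranial tumor, 0.489 and 2.02 CPM, a 4.12-fold difference (2.35 to 7.59) past the 2-fold limit. Fgf17 had 33 and 13 counts and a log2 ratio of -0.97 whose interval (-2.02 to -0.00) ended just below 0 and crossed it under other scalings. Fgf8 had 0 counts in both. Fgf16, related to Fgf9 and Fgf20, had 7 and 6 counts, and no difference was detectable at this depth (0.15, -1.69 to 1.95).

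The make-up of the ligands therefore differed between the tumors. Of all counts on the 18 secreted ligands, Fgf10 took 36.8% (35.8 to 37.8) in the intracranial and 9.61% (8.32 to 11) in the extracranial tumor. Fgf7 took 0.975% (0.777 to 1.21) and 12.1% (10.7 to 13.7), Fgf18 0.200% (0.116 to 0.320) and 2.84% (2.14 to 3.68), and Fgf2 46.3% (45.3 to 47.4) and 56.5% (54.2 to 58.7). Each of these 4 pairs of intervals was separate. Per kilobase the shares were 41.4% and 10.1% for Fgf10, 1.56% and 18.0% for Fgf7, 0.872% and 11.5% for Fgf18, and 35.4% and 40.2% for Fgf2.

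Among endocrine ligands, Fgf15, the mouse counterpart of human FGF19 and best known as the ileal hormone that limits bile acid synthesis, was the member above the floor. It had 501 counts in the intracranial and 25 in the extracranial tumor, 14.4 and 0.934 CPM, and was 15.4-fold higher in the former (10.3 to 24.1). Fgf21, a liver hormone of fasting, had 1 and 0 counts, and Fgf23, the phosphate hormone of bone, had 0 in both. Kl, the co-receptor of Fgf23, had 0 counts in both tumors too.

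The 4 intracellular FGF homologous factors are not secreted and bind voltage-gated sodium channels in neurons and muscle. They split evenly. Fgf11 had 238 and 28 counts (6.85 and 1.05 CPM) and was 6.55-fold higher in the intracranial tumor (4.41 to 10.1). Fgf14 had 146 and 5 counts (4.20 and 0.187 CPM) and was 22.5-fold higher there (9.42 to 70.3). By contrast, Fgf13 had 18 and 78 counts (0.518 and 2.91 CPM), 5.63-fold higher in the extracranial tumor (3.34 to 9.99) and past the 2-fold limit. Fgf12 had 3 and 15 counts, and its log2 ratio of 2.70 (0.88 to 5.13) passed neither limit. All 4 were low in the extracranial tumor, at 0.725 CPM per kilobase or less. The neuron list also split, with 5 of 10 genes higher and 5 lower in the extracranial tumor (summed level 90.3 and 140.8 CPM), and the skeletal muscle list was lower there for 8 of 8 genes above the floor (55.1 and 12.0 CPM, Myod1 at 0 in both). Their part in these ratios was not tested.

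**Figure D3:**
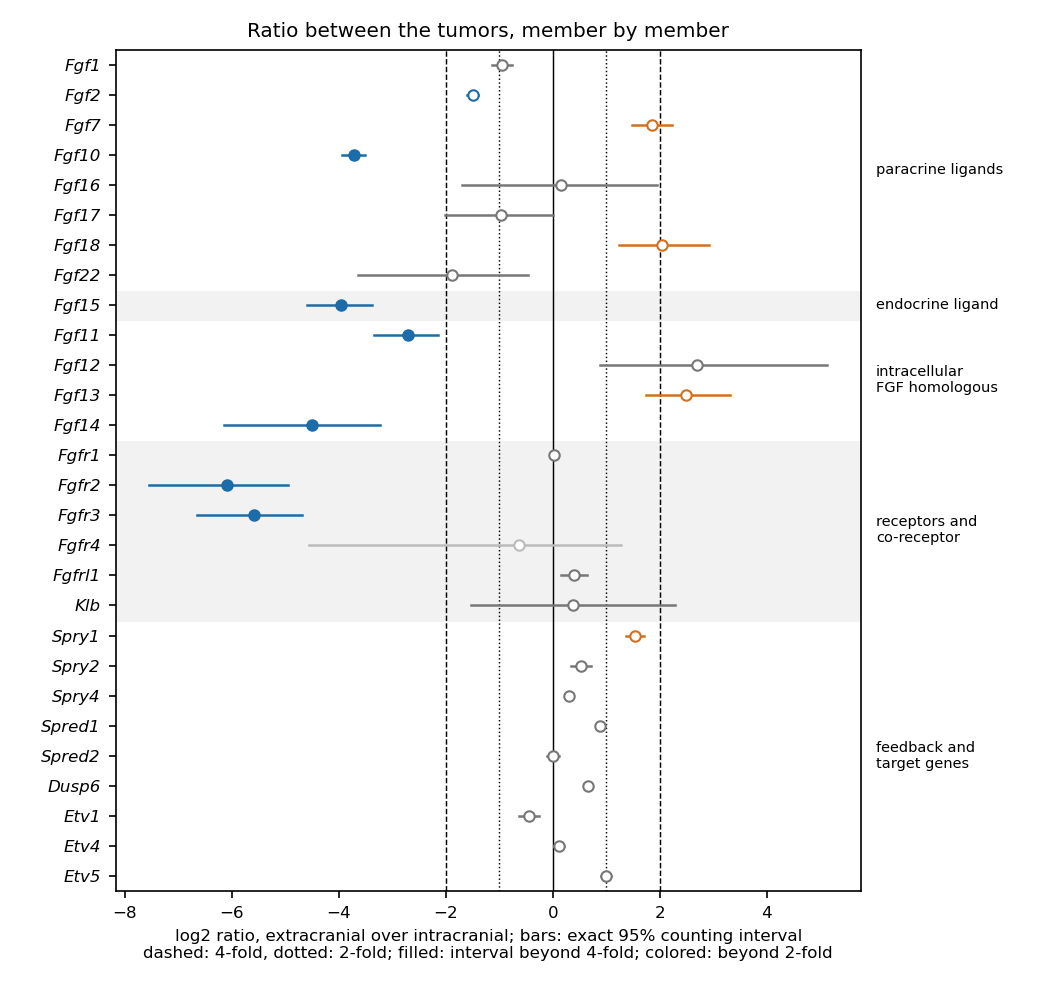
Log2 ratio of each FGF pathway gene above the floor, extracranial over intracranial tumor, with the exact 95% counting interval; filled points lie wholly beyond 4-fold (dashed), colored points beyond 2-fold (dotted), and the palest point (Fgfr4) had too few counts to be tested. Fgfr2 (-6.09) and Fgfr3 (-5.58) lay farthest from 0, whereas the 9 feedback and target genes spanned -0.44 to 1.54.

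Feedback and target genes were expressed in both tumors, with ratios in a narrower range than those of the ligands. All 9 were above the floor in both. At 4-fold 0 of 9 were called and at 2-fold 1 of 9, beside 7.19% and 15.6% of all tested genes. For 9 genes these counts are near the shares of the whole table. Their summed level was 438.2 CPM in the intracranial and 645.1 CPM in the extracranial tumor. The median log2 ratio was 0.53, with 8 of 9 genes above 0. Over the 24490 genes above the floor in either tumor, the median was -0.04 and 11210 ratios were above 0. The interval lay wholly above 0 for 7 genes, wholly below 0 for Etv1 and across 0 for Spred2.

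Spry1 (ENSMUSG00000037211) was the gene called at 2-fold. It had 456 and 1018 counts, 13.1 and 38.0 CPM, and was 2.90-fold higher in the extracranial tumor (2.59 to 3.24). Spry2 had 482 and 536 counts (13.9 and 20.0 CPM) and Spry4 had 2984 and 2832 (85.9 and 106 CPM), with log2 ratios of 0.53 (0.35 to 0.71) and 0.30 (0.23 to 0.38). Spry4 was thus the highest Sprouty gene in both tumors, also per kilobase (18.1 and 22.3 CPM per kilobase).

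Dusp6, a phosphatase specific for ERK, was the highest of these 9 genes per kilobase. It had 2923 and 3576 counts, 84.1 and 134 CPM, or 26.9 and 42.7 CPM per kilobase, at percentiles 90.6 and 94.2. Its log2 ratio was 0.67 (0.60 to 0.74). Spred1, which brings neurofibromin to RAS, had 2662 and 3759 counts, and its log2 ratio was 0.87 (0.80 to 0.95). Spred2 had 1538 and 1195 counts, which is 44.3 and 44.7 CPM and a ratio of 0.01 (-0.10 to 0.12).

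The 3 ETS factors differed from each other. Etv5 had 1479 and 2264 counts (42.6 and 84.6 CPM) with a log2 ratio of 0.99 (0.90 to 1.09). Etv4 had 2065 and 1723 counts (59.4 and 64.4 CPM) with a ratio of 0.12 (0.02 to 0.21). Etv1 was the lowest per kilobase (1.38 and 1.01 CPM per kilobase) and, with 636 and 361 counts and a ratio of -0.44 (-0.63 to -0.25), the single gene of this group that was lower in the extracranial tumor.

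The steps between ligand and target were compared with lists of other pathway genes. The adaptors and the RAS-ERK cascade lay closest together. Of 20 genes, 0 were called at 4-fold or at 2-fold, beside 7.19% and 15.6% of all tested genes. The ratios ranged from -0.49 (Hras) to 0.85 (Grb2), and the median was -0.04. Mapk3, which encodes ERK1, had 3658 and 3181 counts (46.6 and 52.7 CPM per kilobase), and Grb2, the adaptor that carries the RAS exchange factor Sos1, had 2361 and 3283 counts. Grb2 was at 67.9 and 123 CPM (log2 ratio 0.85, 0.78 to 0.93), short of 2-fold.

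Of the 17 FGF-binding and matrix co-factors, 15 were tested. At 4-fold, 2 were called lower and 0 higher, beside 5.41% and 1.78% of all tested genes. At 2-fold, 2 were called lower and 2 higher, beside 9.77% and 5.86%, and the median log2 ratio was 0.11. The 2 called higher in the extracranial tumor were Sdc3 (3.10-fold) and Gpc4 (2.55-fold). Fgfbp1, a carrier protein that releases FGFs from the matrix, had 1356 counts in the intracranial and 4 in the extracranial tumor, 261-fold more in the former (102 to 960). Its direction was that of the keratinocyte genes. Sdc4, a heparan sulfate proteoglycan of the cell surface, had 10266 and 1681 counts, 295 and 62.8 CPM, and was 4.70-fold higher in the intracranial tumor (4.47 to 4.96). By the mean of both tumors per kilobase, Sdc4 and Sdc1 were the highest genes of this list. Sdc1 had 5714 and 8148 counts and a log2 ratio of 0.89 (0.84 to 0.94). In the intracranial tumor Sdc4 stood above Sdc1 (116 and 43.2 CPM per kilobase), and in the extracranial tumor below it (24.7 and 79.9), where Gpc1 (39.5), Hspg2 (31.1) and Sdc3 (29.0) also exceeded Sdc4.

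Of 12 other ERK feedback and immediate-early genes, 1 was called lower and 0 higher at 4-fold, beside 5.41% and 1.78% of all tested genes, so the share called lower was near that of the whole table. At 2-fold, 2 were called lower and 2 higher, beside 9.77% and 5.86%, and the median log2 ratio was -0.19. Dusp4, a nuclear ERK phosphatase, had 110 and 11 counts and was 7.70-fold higher in the intracranial tumor (4.14 to 15.9). Il17rd (Sef), an antagonist of FGF signaling at the membrane, was called at 2-fold, with 1880 and 414 counts and 3.50-fold more in the intracranial tumor (3.14 to 3.90). Toward the extracranial tumor, Phlda1 (372 and 956 counts) and Fos (997 and 2035) were called at 2-fold, with log2 ratios of 1.74 (1.56 to 1.92) and 1.41 (1.30 to 1.52). The highest genes of this list by the mean of both tumors were Ccnd1, a cyclin of the G1 phase, with 77.0 and 48.5 CPM per kilobase, and Ier2, with 33.9 and 59.0. In the intracranial tumor alone Ier3 (50.5) exceeded Ier2. Negative regulators of ERK thus differed in both directions, with Spry1 higher and Dusp4 and Il17rd lower in the extracranial tumor.

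**Figure D4:**
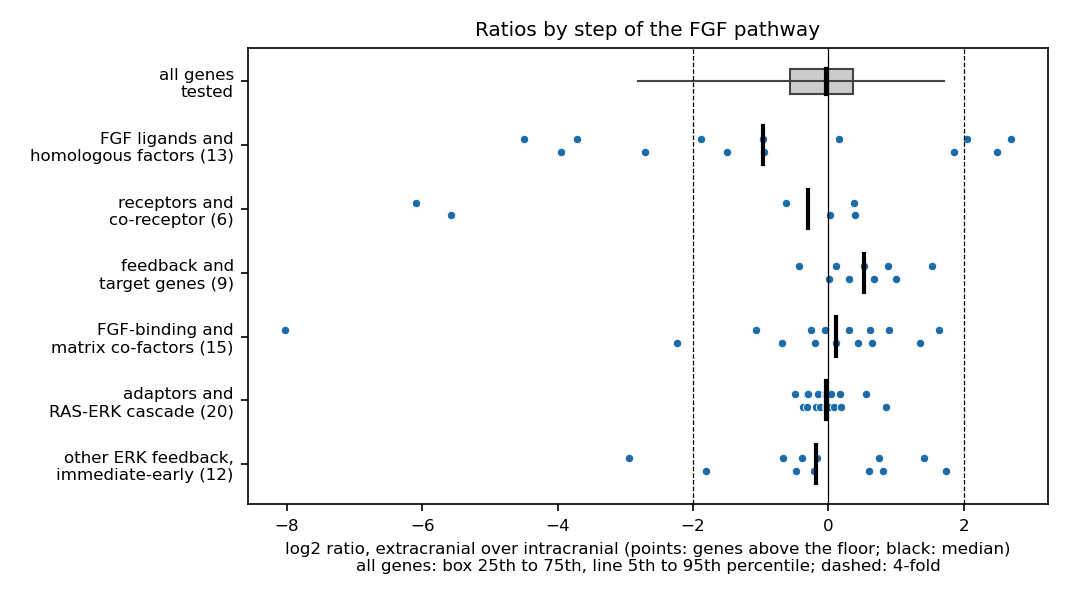
Log2 ratio, extracranial over intracranial tumor, by step of the FGF pathway; each point is a gene above the floor, black bars are medians, and for all genes tested the box spans the 25th to 75th and the line the 5th to 95th percentile. Ligands and homologous factors spread from -4.49 (Fgf14, 146 and 5 counts) to 2.70 (Fgf12, 3 and 15 counts), and secreted ligands alone from -3.95 to 2.04. The 20 adaptor and RAS-ERK genes, each with 120 or more counts in both tumors, stayed between -0.49 and 0.85. Some of the ligands and homologous factors had low counts, whereas Fgf10, at -3.72, had 3132 and 183. The part of low counts in the spread was not tested.

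Side by side, the 22 numbered Fgf genes had 13 ratios with a median log2 ratio of -0.97. The median was -0.30 for the 6 genes of the receptor group and 0.53 for the feedback and target genes. The receptor value describes no gene. It is the midpoint of Fgfr1 (0.02) and Fgfr4 (-0.62), which had 6 and 2 counts and was not tested, while Fgfr2 and Fgfr3 lay at -6.09 and -5.58. The median of the numbered Fgf genes is the ratio of Fgf17 (33 and 13 counts), with 8 genes below and 5 above 0. Macrophage genes were higher in the extracranial tumor for 10 of 10 (summed level 5923 and 13621 CPM) and endothelial genes for 10 of 10 (250.1 and 436.3 CPM), while the mesenchyme list was split, with 4 of 10 higher and 6 lower (4063 and 5508 CPM). The part of these cells in the ratios of ligands and feedback genes was not tested.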

How the data were processed

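Unnormalized read counts per Ensembl gene were deposited, with 1 column per tumor. Single-end, directional poly(A) libraries had been aligned by the authors with STAR (version 2.7.9a), and reads per gene had been counted with featureCounts; the processing notes name GRCm39. How the strand and multiple alignments were treated is not given in the sources used here, so counts of overlapping and antisense genes are uncertain.

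Symbols, biotypes, exon lengths and overlaps came from release 21 of mouse GENCODE (GRCm38), which named 93.99% of the IDs; no coordinates of the counted genes were used. Scaling used TMM factors of edgeR 4.0.16 (R 4.3.3), which were 1.006 and 0.994. Levels are CPM with exact Clopper-Pearson 95% intervals, and levels between genes are CPM per kilobase of summed exons. Ratios have the conditional exact binomial 95% interval, for genes with 10 or more counts over both tumors. For the ratios of single genes and their medians, counts of 3 or fewer were set to 3, while intervals used the counts themselves. Genes at or under 3 in both tumors got no ratio and were left out of medians. A quasi-likelihood test could not be fitted without replicates, and no p-value is given. The procedure was run on simulated counts with counting error only and large changes in well-counted genes. Variation between animals was not simulated, so this run cannot give the rate of false calls between single tumors. Every gene of the rule is named. Of other pathway lists, those called at 4-fold and the 2 highest by mean CPM per kilobase over both tumors are named. Il17rd, Phlda1, Fos, Hras, Frs2, Gpc1, Gpc4, Hspg2, Sdc3, Ier3, Sox10, Egr2, Mag, Krt13 and Krt4 were named after their values were seen. One gene is not reported here. The genes and lists were chosen with earlier results of these data known.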

Additional observations from a re-analysis of the deposited data

How the results depend on the processing

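No paired analysis was possible because there was a single library at each location, so leaving out a library in turn was not possible either. Scaling by DESeq2 1.42.0 size factors, by total counts or by upper quartile factors moved the median log2 ratio of 15582 genes by 0.02, -0.02 and 0.04. All 84 ratios and 168 levels of single FGF pathway genes kept their side of the 4-fold limit or stayed inside their counting interval under these 3 scalings. The interval of Fgf17 did not stay below 0. Its upper limit was 0.01 with DESeq2 size factors and 0.04 with upper quartile factors. The count of 6 genes called stayed within 1.5 times under the scalings, with any count and with 100 or more counts. It rose to 9 with the ratio alone, where Fgf12, Fgf13 and Fgf18 joined as 3 higher genes beside the 6 lower ones, and to 11 with an interval beyond 2-fold, a looser limit by construction. Over the whole table the 1581 genes called became 3434 beyond 2-fold and 2542 with the ratio alone. With 100 or more counts, fewer genes entered the medians, which moved to -2.71 for the numbered Fgf genes, -2.78 for receptors and 0.30 for FGF-binding and matrix co-factors; the last moved to 0.14 with upper quartile factors. The longest transcript in place of summed exons gave Fgfr1 90.7% of the receptor level per kilobase in the intracranial tumor, against 90.5%, and 99.8% in the extracranial one. Depth limits Fgf12, Fgf16, Fgf17, Fgf22, Fgfr4 and Klb.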

Other observations

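Antisense genes annotated across FGF ligands were also counted. Gm16263, opposite Fgf10 with 123 shared exon bases, had 74 counts in the intracranial and 6 in the extracranial tumor. Gm28932, opposite Fgf14, had 25 and 0, and Gm26793, opposite Fgf15, had 23 and 1. Each was lower in the extracranial tumor, as were the ligand or homologous factor it overlaps. Gm16159, opposite Fgfr1, had 8 and 5 counts. Reads of a gene and its antisense partner can be told apart only where the counting used the strand.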
